A study of Mus musculus with 10 samples.

Results

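The MHC class II genes examined were H2-Ab1, H2-Aa, H2-Eb1, H2-DMa, H2-DMb1, Cd74 and Ciita, 7 genes in all. Every probe set annotated to exactly 1 of these gene symbols was taken, which gave 14 of the 45037 probe sets that are not array controls. H2-Ab1 had 3 probe sets, H2-Aa 4, H2-Eb1 1, H2-DMa 2, Cd74 1 and Ciita 3. H2-DMb1 had 0, because the 2 probe sets that carry its symbol are annotated to a second gene as well, so 6 genes were measured. The family was picked because the signal of H2-Ab1 was much lower in the mutant while macrophage markers were higher. Mutant against wild-type differences of the members are therefore given as descriptions, with no test.

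The samples were 10 pools of metanephric mesenchyme, the embryonic kidney tissue around the ureteric bud, each on its own Affymetrix mouse genome array. Of these, 5 were from Wnt9b-/- embryos and 5 from littermates labelled Wnt9b+/+. The text on the study's design instead names Wnt9b+/- tissue as the control. Embryos of both groups came from crosses between heterozygotes and were dissected at E11.5, the bud was stripped off with trypsin and pancreatin, and each pool held 25 to 30 mesenchymes. The labels used here name no mouse strain. Wnt9b encodes a ligand made by the ureteric bud, and the comparison asks how the mesenchyme differs when the ligand is absent.

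MHC class II molecules are pairs of an alpha and a beta chain that display peptides from endosomes to CD4+ T cells. H2-Aa and H2-Ab1 encode the chains of the I-A molecule, and H2-Eb1 encodes the beta chain of I-E. Cd74, the invariant chain, chaperones new class II molecules to the endosome, where the H2-DM molecule (chains H2-DMa and H2-DMb1) exchanges its remnant for peptide. Transcription of these chains is switched on by the coactivator Ciita, which docks on factors bound to the X and Y boxes of their promoters. In the adult the family marks dendritic cells, B cells and activated macrophages, whereas fetal macrophages carry little of it.

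Ciita acts on the chains through the promoter boxes, so the stretch holding them is shown for the members taken here in which both were found. Promoters came from the RefSeq promoter table (GRCm38.p6, 250 bases before to 50 after each start). Those taken were 5 promoters of 4 members, H2-Aa, H2-Eb1, H2-DMb1 and H2-DMa. Promoters of the other members were left out of these counts and of the stretches shown. This does not show that RefSeq lacks one, or that the boxes are absent from them. Capitals mark the X box core GNAAC and, 15 to 35 bases downstream, the Y box core TGATTGG, which were searched on both strands after these promoters had been read.
H2-Aa (chr17:34287855-34287916, minus strand): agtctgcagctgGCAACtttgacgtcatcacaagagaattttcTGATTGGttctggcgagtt
H2-Eb1 (chr17:34305764-34305824, plus strand): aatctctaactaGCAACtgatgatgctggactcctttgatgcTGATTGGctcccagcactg
H2-DMb1 (chr17:34153085-34153146, plus strand): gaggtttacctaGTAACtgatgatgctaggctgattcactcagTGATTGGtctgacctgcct

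The Y core began 50 bases before the start of H2-Aa, 61 before that of H2-Eb1 and 63 before that of H2-DMb1. It followed the X core after 26 bases in H2-Aa and H2-DMb1 and after 25 in H2-Eb1. The pair was found in 0.569% of the 32851 promoters of the same length in the table, against 7.82% for the Y core alone and 84.8% for the X core alone. Neither promoter of H2-DMa held the pair or the Y core in these letters. A match is a description of the letters and no evidence of binding.

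Several facts of the whole series bear on the values. Array medians lay between 5.99 and 6.30 after log2(signal + 1), a value written as log2 signal from here on. Signals of different probe sets are not comparable as transcript levels, so each probe set is compared with itself across arrays. Wnt9b had signals of 41.8 to 106 in the mutant and 78.2 to 99.7 in wild type on its brighter probe set, a difference of -0.24 (SE 0.24). On its dimmer one they were 6.39 to 49.1 and 19.9 to 49.5, a difference of -0.78 (SE 0.58). Neither checks anything about the labels, since the sources used here do not place the probe sets relative to the deletion. The bud that makes Wnt9b had been stripped off, yet only 1 of 9 measured bud markers lay below the median of all values. How much bud was left was not tested. Of 9 measured mesenchyme markers, none lay below the median of all values, and 8 were lower in the mutant (median difference -0.66), where 45.1% of all genes were. Limma called 0 of these 9, and 6 were lower at an unadjusted p under 0.05, against 2.08% of all genes. Of the 9, Itga8 was at -0.77 (SE 0.15) and Gdnf at -1.12 (SE 0.23), while 1 marker was higher. The arrays fell into 2 sets by the 18S control signal, 4 arrays above 1000 (wild-type replicates 2 and 5, mutant replicates 4 and 5) and 6 below. Mutant replicate 2 and wild-type replicate 3 had the brightest hybridisation controls.

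H2-Ab1, the I-A beta chain, differed most. On probe set 1450648_s_at the wild-type arrays read 118, 98.3, 164, 132 and 158 in signal for replicates 1 to 5. The mutant arrays read 16.7, 35.2, 14.5, 42.5 and 59.8. Every mutant array was below every wild-type array, with mutant replicates 1 and 3 the dimmest. The wild-type log2 signals averaged 7.05 ± 0.30 (SD, n = 5) and the mutant ones 4.93 ± 0.85 (SD, n = 5), a difference of -2.12 (SE 0.38), or 4.36-fold lower. It was the 11th largest fall of the 45037 probe sets, which is the value that chose the family. Among the 4 arrays of high 18S signal it was -1.29, and among the 6 of low 18S signal -2.68. In bulk tissue fewer cells of a type and less RNA per cell cannot be told apart. Among pairs of arrays whose titles share wording, it was -0.71 for wild-type replicate 2 and mutant replicate 5, -1.86 for wild-type replicate 5 and mutant replicate 4, and -2.92 for wild-type replicate 4 and mutant replicate 1. Both in the sets and in the pairs the mutant was the lower one, by amounts that varied.

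The other probe sets of H2-Ab1 separated the groups less. On 1451721_a_at the wild-type signals were 85.7, 41.6, 57.5, 54.9 and 39.1 and the mutant signals 20.1, 82.5, 20.9, 42.5 and 31.1. Here the groups overlapped, since mutant replicate 2 was brighter than 4 of the wild-type arrays. The difference was -0.63 (SE 0.39). It was -0.14 among the high-18S arrays against -0.96 among the low ones, and +0.12 for the pair of wild-type replicate 5 and mutant replicate 4. On 1425477_x_at, a very dim probe set, wild type ranged from 7.30 to 35.0 and the mutant from 4.34 to 10.5, a difference of -0.97 (SE 0.42). It was -0.64 without wild-type replicate 1 and -0.44 with a pseudocount of 16. The 3 probe sets thus had the same direction over all arrays and different sizes, and mutant replicates 1 and 3 were the lowest of all arrays on both brighter ones.

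The spacing of the brighter pair shows how far they part. In wild type 1451721_a_at lay below 1450648_s_at by a mean log2 gap of -1.28 ± 0.55 (SD, n = 5). In the mutant it lay slightly above, with a gap of 0.21 ± 0.77 (SD, n = 5). Over the 10 arrays 1450648_s_at is thus the brightest H2-Ab1 probe set only through its wild-type signal. It stands for H2-Ab1 wherever a gene is taken by its brightest probe set. Over the 10 arrays the pair correlated at r = 0.61, and at 0.46 after each group's mean was removed, given as descriptions. By Affymetrix naming, an _s_at probe set has probes that also match other transcripts, an _x_at set has some probes shared with unrelated sequence, and an _a_at set matches transcripts of the same gene. Probe sequences and the H2 haplotypes of the pools were not used here, so the part of allele differences under the probes was not tested.

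**Figure D1:**
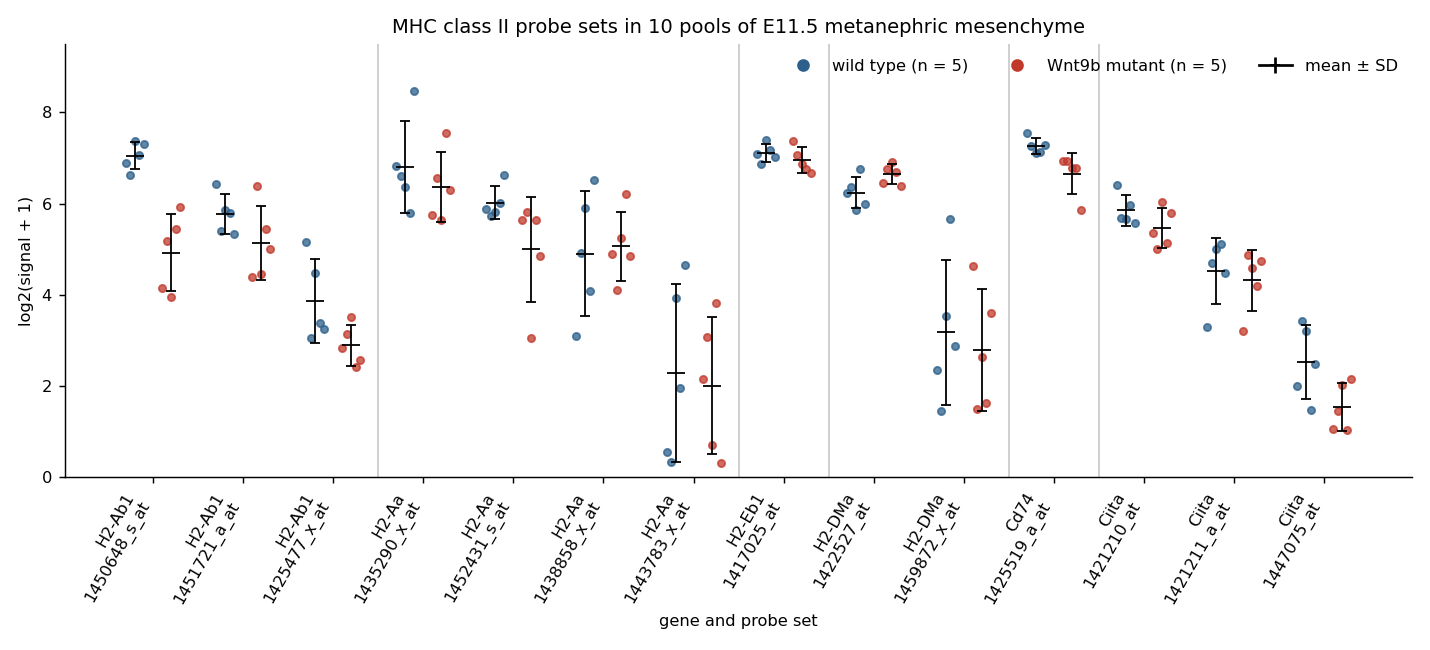
Log2(signal + 1) of the 14 MHC class II probe sets, grouped by gene, with 1 point per array (blue wild type, red mutant) and bars for mean ± SD, n = 5. Groups are apart on 1450648_s_at of H2-Ab1 and on Cd74, and overlap on the other 12.

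H2-Aa, the I-A alpha chain that pairs with H2-Ab1, did not separate the groups. On its brightest probe set, 1435290_x_at, wild type read 112, 96.4, 80.9, 54.1 and 356 and the mutant 52.6, 93.4, 49.0, 188 and 77.2. The highest array of each group was one of a pair whose titles share a spelling, wild-type replicate 5 and mutant replicate 4. The difference was -0.45 (SE 0.52), -0.33 without that pair of arrays and -0.03 without wild-type replicate 5. On 1452431_s_at wild type ranged from 51.9 to 98.6 and the mutant from 7.29 in replicate 3 to 55.2, a difference of -1.02 (SE 0.49), or -0.53 without mutant replicate 3. Of the 25 pairings of a mutant with a wild-type array, the mutant was lower in 24.

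The dimmer H2-Aa probe sets gave no single direction. On 1438858_x_at the difference was +0.16 (SE 0.64), with wild type at 7.60 to 90.7 and the mutant at 16.3 to 73.1. On 1443783_x_at it was -0.27 (SE 0.99), with signals from 0.24 to 24.3. On both, wild-type replicate 5 and mutant replicate 4 were again the highest of their groups. Leaving out 1 array turned the sign of each, over ranges of -0.29 to +0.56 and -0.76 to +0.32. The 2 arrays did not stand apart in the same way on H2-Ab1, where mutant replicate 5 was the highest mutant array on 1450648_s_at. Brightest probe set against brightest, H2-Ab1 and H2-Aa correlated at r = 0.45 over the 10 arrays.

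**Figure D2:**
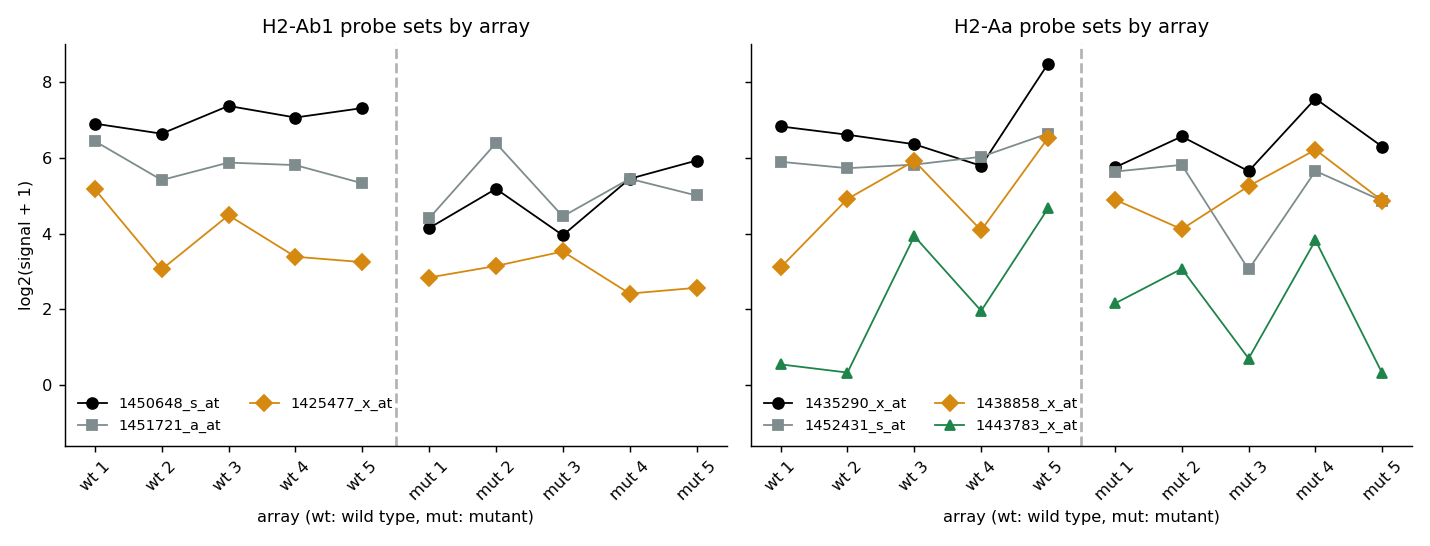
Log2(signal + 1) of each probe set of H2-Ab1 (left, 3 probe sets) and H2-Aa (right, 4 probe sets) in the 10 arrays, wild type left of the dashed line and mutant right of it; lines only join the values of a probe set. For H2-Aa, wt 5 and mut 4 are high on the _x_at sets, and for H2-Ab1 the mutant values of 1450648_s_at, 3.95 to 5.93, lie below the wild-type ones, 6.63 to 7.37.

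H2-Eb1, the I-E beta chain, had nearly the same signal in both groups. Its only probe set, 1417025_at, read 136, 115, 168, 143 and 130 in wild type and 166, 133, 116, 107 and 101 in the mutant. The groups overlapped over most of their range. The means were 7.11 ± 0.20 (SD, n = 5) and 6.95 ± 0.28 (SD, n = 5), a difference of -0.17 (SE 0.17). H2-Eb1 lies near H2-Ab1 on the chromosome, with H2-Aa between them, but the arrays did not fall in the same order, for mutant replicate 1 was the highest mutant array on H2-Eb1.

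Cd74, the invariant chain, was the other member whose groups did not overlap. Its probe set 1425519_a_at read 187, 152, 138, 139 and 155 in wild type and 122, 122, 109, 109 and 57.3 in the mutant. Mutant replicate 5 was far below the other mutant arrays. The means were 7.27 ± 0.18 (SD, n = 5) and 6.66 ± 0.45 (SD, n = 5), a difference of -0.61 (SE 0.22), or 1.52-fold lower. Without mutant replicate 5 it was -0.41. High-18S arrays alone gave -0.95 and low-18S arrays -0.38. Mutant replicate 5 was thus the lowest mutant array for Cd74 and the highest for H2-Ab1, and after removal of the group means the pair correlated at r = -0.62 over the 10 arrays.

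H2-DMa, the peptide exchange chain, was the member gene whose brightest probe set was higher in the mutant. On 1422527_at wild type read 74.0, 82.1, 57.2, 107 and 63.2 and the mutant 86.9, 108, 120, 102 and 82.4. Wild-type replicate 4 lay within the mutant range, and the other wild-type arrays lay below all mutants. The difference was +0.40 (SE 0.19). Its second probe set, 1459872_x_at, was too dim for a direction, with signals of 1.76 to 50.0 and a difference of -0.38 (SE 0.84) that reached +0.24 on leaving out 1 array.

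Ciita, the coactivator of the family, was dim on each of its probe sets. On 1421210_at wild type read 83.4, 50.3, 50.0, 62.1 and 46.4 and the mutant 39.9, 31.3, 65.0, 34.4 and 54.3, a difference of -0.39 (SE 0.24). Mutant replicates 3 and 5 lay within the wild-type range. On 1421211_a_at the difference was -0.20 (SE 0.41), with signals of 8.24 to 33.7 and up to +0.08 on leaving out 1 array, and on 1447075_at -0.97 (SE 0.40), with signals of 1.05 to 9.77. With a pseudocount of 16 the last was -0.24. Within the low-18S and high-18S arrays 1421210_at was at -0.55 and -0.16.

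Of the 14 probe sets, 12 were lower in the mutant, against 48.2% of all probe sets, with a median difference of -0.42 against +0.01 over all. By the brightest probe set of each gene, 5 of 6 genes were lower, against 45.1% of all genes, and 2 of the 6 were lower at an unadjusted p under 0.05, against 2.08%. Groups did not overlap with the mutant lower on 2 of the 14, where the share over all probe sets was 0.424%. With limma's adjusted p under 0.05, 0 of the 14 were called and 0.00444% of all probe sets were, which is 2 probe sets and 0 with the title-wording block. An unadjusted p under 0.05 was reached by 4 of the 14, each lower in the mutant, and by 4.51% of all probe sets, 1.95% with the mutant lower. These counts come from the contrast that chose the family, and nothing is read from them. In the gene fit, H2-Ab1 passed only with an intensity trend and robust moderation (limma adjusted p = 0.0475). Over the other settings in which it was tested its adjusted p ran from 0.145 to 0.747. H2-Ab1 was chosen by that contrast, so this p is no test of it. Dimness limits the set, since 10 of the 14 lay below the median probe set of the array.

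Of the remaining class II genes 2 were lower and 3 higher by the brightest probe set, and over all their probe sets 2 of 9 were lower, against 48.2% of all probe sets on the array. H2-Eb2, a second I-E beta gene, differed by +0.29 (SE 0.41), H2-Oa by +0.15 (SE 0.22) and H2-DMb2 by -0.09 (SE 0.33) on their brightest or only probe sets. The other H2-DMb2 probe sets had the opposite sign, 1443686_at at +0.38 (SE 0.61) and 1443687_x_at at +0.49 (SE 0.80). H2-Ob, which with H2-Oa forms the inhibitor of H2-DM, was at -0.80 (SE 0.77) on a dim probe set with signals of 1.26 to 31.2. H2-Ea, the I-E alpha chain, which some mouse haplotypes do not express, had 3 probe sets with signals from 2.11 to 43.7. Its differences were +0.91 (SE 0.53), +0.09 (SE 0.20) and +0.85 (SE 0.55). On the first of them, wild-type replicate 5 and mutant replicates 1 and 2 read 43.7, 41.2 and 35.0, and the other 7 arrays 5.52 to 17.6. These arrays did not stand apart on the other H2-Ea probe sets. On 1422891_at wild-type replicate 5 read 12.4, in a range of 11.8 to 21.7 over all arrays. On 1426202_at mutant replicate 3 read 18.7, above wild-type replicate 5 at 17.8 and mutant replicate 1 at 14.9. Limma called 0 of the 5 measured genes, and 0 had an unadjusted p under 0.05, where 5.49% of all genes did.

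The neighbours of H2-Ab1 differed less than its brightest probe set, whose fall chose the family, so smaller differences elsewhere were to be found. The comparison is given as values and not tested. The other H2-Ab1 probe sets, at -0.63 and -0.97, lay within and just below the range of the neighbours, -0.80 to +0.91. In RefSeq gene order on chromosome 17, 37 of the 60 genes nearest to it were measured, 34 of them no members. Of these 34, 10 were lower and 24 higher in the mutant, with a median difference of +0.08 against +0.02 over all 18193 genes. Limma called 0 of the 34 and 0.0055% of all genes, and an unadjusted p under 0.05 was reached by 0 of the 34 and 5.49% of all. The largest falls by size were H2-Ob, Btnl2 at -0.49 (SE 0.38) and AA388235 at -0.36 (SE 0.18). H2-Ea, Psmb9, an immunoproteasome subunit, at +0.66 (SE 0.48) and Col11a2, a collagen chain, at +0.58 (SE 0.46) were highest. H2-Ob and H2-Aa, the closest measured genes on either side, had differences of about their SE or smaller on their brightest or only probe sets. H2-Aa was lower on 3 of its 4 probe sets, with 1452431_s_at at -1.02 (SE 0.49). Wnt9b lies on chromosome 11, Ciita on 16 and Cd74 on 18, so the targeted gene is on another chromosome than the H2 genes.

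**Figure D3:**
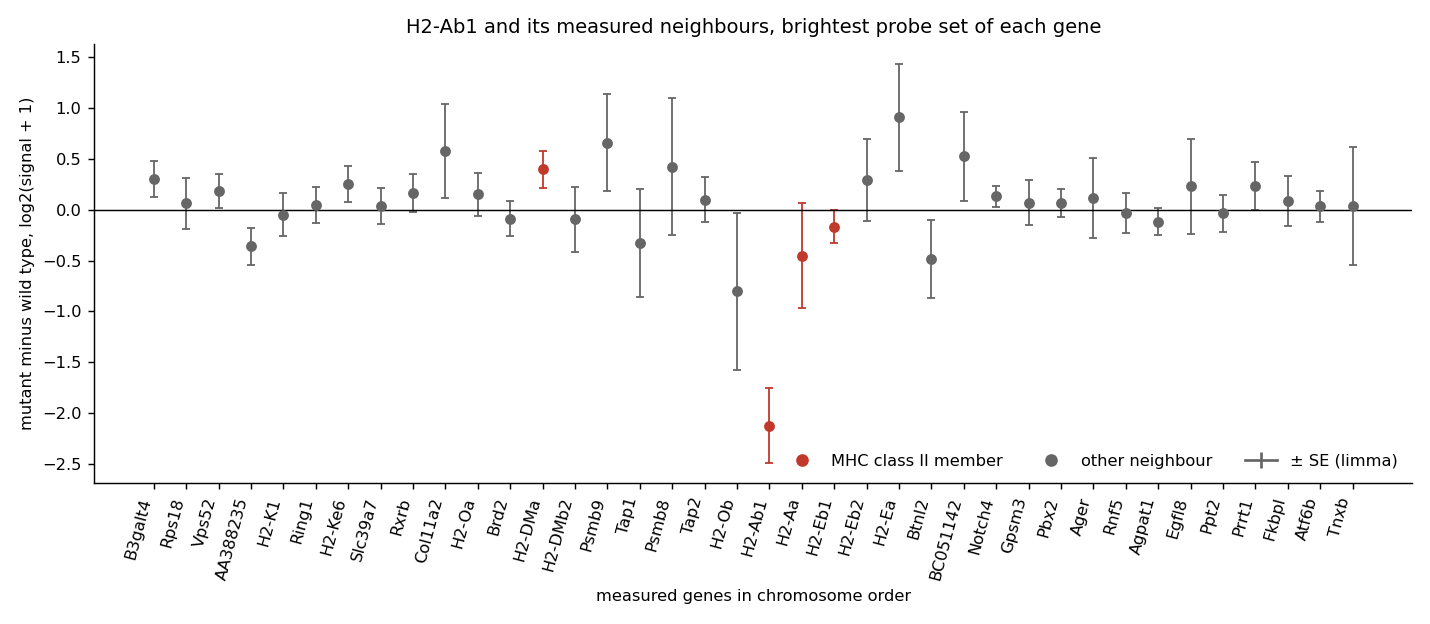
Difference between mutant and wild type, log2(signal + 1) ± SE from limma, for H2-Ab1 and the 37 measured genes among its 60 nearest, in chromosome order (evenly spaced, not to distance). Class II members are red. H2-Ab1, shown by the probe set whose fall chose the family, is at -2.12, and the others range from -0.80 to +0.91.

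Genes that act on the class II promoters were measured well above the median and differed little. Of 8 regulators 4 were lower and 4 higher (median -0.03), with Rfx5, a subunit of the factor that binds the X box, at +0.22 (SE 0.13) and Creb1, which binds beside it, at -0.21 (SE 0.15). Interferon gamma is the classical inducer of Ciita. Of 9 measured genes of its pathway 4 were lower and 5 higher (median +0.06), and 4 of the 9 were dim. Ifng itself was dim, with a wild-type mean of 3.61 ± 1.16 (SD, n = 5) and a mutant mean of 1.99 ± 1.26 (SD, n = 5), and Jak1, a kinase of the receptor, differed by +0.14 (SE 0.13). Limma called 0 genes on either list, and Ifng alone of the 17 had an unadjusted p under 0.05, where 5.49% of all genes did and 2.08% with the mutant lower.

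Class I and processing genes differed less than the brightest H2-Ab1 probe set, whose fall chose the family, so smaller differences were to be found. Of 16 measured class I and peptide-loading genes 6 were lower and 10 higher (median +0.09), over a range of -0.62 to +0.66. H2-K1, a class I heavy chain, was at -0.05 (SE 0.21) and Tapbp, which loads peptide, at +0.20 (SE 0.13). All 6 genes of endosomal processing were higher (median +0.14, where 54.9% of all genes were higher). Ctss, the protease that trims Cd74, went from 7.92 ± 0.44 (SD, n = 5) to 8.66 ± 0.68 (SD, n = 5), a difference of +0.74 (SE 0.34), and Ctsb, another protease, differed by +0.21 (SE 0.12). Limma called 0 genes on either list, and 0 on either had an unadjusted p under 0.05, where 5.49% of all genes did.

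Macrophage markers beside a low H2-Ab1 are the contrast that drew attention to the family, so their counts are a description. Of 20 measured markers 18 were higher in the mutant (median +0.30) and 2 lower, Fcgr1 at -0.14 (SE 0.26) and Spi1 at -0.07 (SE 0.22), with 0 called by limma and 2 higher at an unadjusted p under 0.05, where 3.41% of all genes were. C1qa, a complement gene, was at +0.73 (SE 0.27) and Cd14, a lipopolysaccharide receptor, at +1.05 (SE 0.45). The mean log2 signal of the list was 6.38 to 6.79 in wild-type and 6.51 to 7.15 in mutant arrays, so the groups overlapped. Mutant replicates 1 and 3, lowest for H2-Ab1, had the highest macrophage means, 7.05 and 7.15. Mutant replicate 2 had a macrophage mean of 6.51, within the wild-type range, and an H2-Ab1 log2 signal of 5.18. The list was not uniformly bright: 6 of the 20 markers lay below the median of all values. Means of the mesenchyme list were 8.35 to 9.22 in mutant and 9.33 to 9.56 in wild-type arrays, so those groups did not overlap. Mutant replicate 1 had the lowest of the mutant mesenchyme means and mutant replicate 5 the highest. Mutant replicates 3 and 4 both had a mesenchyme mean of 8.87, with H2-Ab1 log2 signals of 3.95 and 5.44. The part of macrophage or mesenchyme content in the class II values was not tested.

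**Figure D4:**
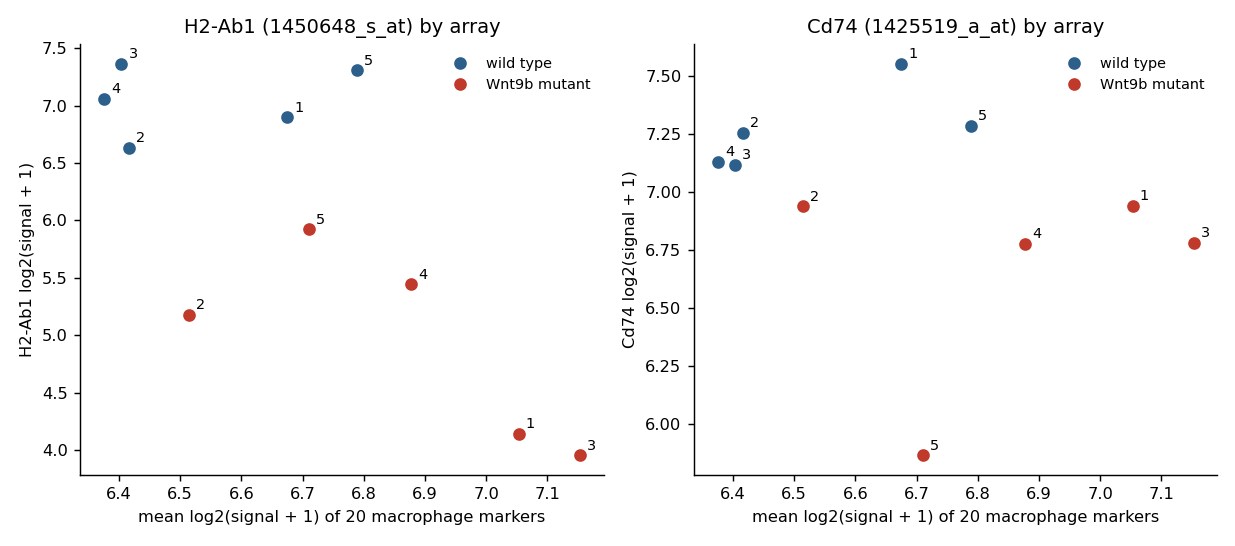
Log2(signal + 1) of H2-Ab1 (left) and Cd74 (right) against the mean of 20 macrophage markers, 1 point per array labelled with its replicate number, blue wild type and red mutant. Macrophage means run from 6.38 to 6.79 in wild-type and from 6.51 to 7.15 in mutant arrays, and mutant replicates 1 and 3 lie at the lower right of the H2-Ab1 panel.

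Markers of dendritic cells and B cells, which carry class II, and of T cells, which recognise it, were mostly dim. Of 7 measured dendritic cell markers 5 were lower and 2 higher (median -0.10), and 5 lay below the median of all values. Flt3, a receptor of dendritic cell precursors, was at +1.06 (SE 0.36) and the integrin Itgax at -0.37 (SE 0.31). Of 7 B cell markers 4 were lower and 3 higher (median -0.07), with Cd79b at +0.30 (SE 0.26) and Ms4a1 at -0.27 (SE 0.27). Of 6 T cell markers 2 were lower and 4 higher (median +0.29), with Cd8a at +0.38 (SE 0.16) and Cd3g at +0.68 (SE 0.56). List means ranged from 5.20 to 5.91 in mutant and 5.24 to 6.06 in wild-type arrays for dendritic cells, from 5.84 to 6.25 and 5.69 to 6.28 for B cells, and from 4.23 to 4.70 and 4.14 to 4.55 for T cells. The groups overlapped on each list, and limma called 0 of these genes, with 2 of the 20 (Flt3 and Cd8a, both higher) at an unadjusted p under 0.05, where 3.41% of all genes were higher at that p and 5.49% differed in either direction. Wild-type replicate 5, highest on H2-Aa, also had the highest B cell mean of the wild-type arrays, while mutant replicate 4 had the lowest mutant one, 5.84.

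Markers of other tissue in the pools were measured beside these. Of 9 ureteric bud markers 4 were lower and 5 higher, with Tfap2b at +0.34 (SE 0.16) and Wnt11 at +0.26 (SE 0.18). All 8 endothelial markers were higher (median +0.14), where 54.9% of all genes were higher. Among them Cdh5 was at +0.26 (SE 0.14) and Tie1 at +0.36 (SE 0.26). Of 7 erythroid markers 5 were higher (median +0.09), with Gata1 at +0.56 (SE 0.27) and Klf1 at +0.33 (SE 0.40). Limma called 0 of these and 0.0055% of all genes. An unadjusted p under 0.05 was reached by 0 of these and 5.49% of all genes. The part of these tissues in the class II values was not tested.

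Of the genes bright enough to be ranked, those most like H2-Ab1 in pattern were not class II genes. The signal limit left out Ciita, H2-Eb2, H2-Oa, H2-Ea and H2-Ob, so these could not rank. H2-Ab1 itself lay just below that limit. Over the 10 arrays, among 11434 genes with a mean log2 signal of at least 6, the highest correlations with 1450648_s_at were those of Spred1 (r = 0.94), Itga8 (0.92), Acsl3 (0.91), Tpbg (0.90) and E2f8 (0.90). Their differences ran from -0.32 for Spred1 to -0.77 for Itga8, an integrin of the mesenchyme. After removal of group means the closest were Rfx7 (r = 0.92), Prcc (0.91), Yod1 (0.89), Ktn1 (0.88) and 4931406C07Rik (0.88), a set with no gene in common with the first 5. Of the members above that signal, H2-Aa ranked 1059 and Cd74 1253 of the 11434 by the first measure, H2-Eb1 3291 and H2-DMa 11023. After removal of group means H2-Aa ranked 1289, H2-Eb1 8552, H2-DMa 8832 and Cd74 10627, so Cd74 went from the upper to the lower end. These correlations are descriptions over arrays that share their groups, picked as the highest of many.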

How the data were processed

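The authors deposited 1 linear intensity per probe set and array, with the summarisation method not given in the sources used here. Every array had a mean of 250.0 after trimming 2% at each end, so arrays were scaled before deposit. Values were used as log2(signal + 1) without further normalization, which shrinks the folds of dim probe sets. The platform annotation gave 34945 probe sets 1 gene symbol and 932 several, and 9160 were unnamed here. Of the former 34741 matched RefSeq genes (GRCm38.p6) by gene identifier. The number of arrays limits the precision. Replicate numbers follow accession order.

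Differences between the groups were fitted by limma 3.58.1 under R 4.3.3 (lmFit, eBayes, two-sided, Benjamini-Hochberg) over 45037 probe sets and over 18193 genes, each by its brightest probe set, and called at adjusted p under 0.05. The code was tested on simulated data. The members and lists were chosen with earlier results of these data known. Labels pair no arrays, but 3 pairs of arrays share title wording, and deviations from the group means correlated within each pair (0.25 to 0.38 over 11434 genes). Both arrays of each pair also fell in the same 18S set, and no value for unpaired arrays is given beside these. A block was run with 1 level for each pair and 1 further level for the other 4 arrays, whose titles share wording less clearly and were not paired. Genes named were all member and other class II probe sets, up to 4 called or else the 2 genes of smallest p of each list, the 3 highest and 3 lowest of the 60 genes next to H2-Ab1, and the 5 closest in pattern by each measure. H2-K1 was added after its value was seen. Other alternatives were quantile normalization, median centring, a pseudocount of 16, leaving out the dimmest 40%, an intensity trend with robust moderation, the 18S sets as a block and alone, leaving out arrays, and averaging the probe sets of each gene.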

Additional observations from a re-analysis of the deposited data

Results flagged for a closer look

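For the 14 member probe sets and the means of the 14 lists, each group's most extreme array was checked for a gap to its nearest neighbour that is large against the whole spread, which made 56 checks. Chance marks about 1 in 20 of them, or 2.8 here, and 1 was marked. It was Cd74 in the mutant: replicate 5 had a log2 signal of 5.87, and the remaining mutants lay between 6.78 and 6.94.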

How the results depend on the processing

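The count of member probe sets lower in the mutant was 11 to 13 of 14 in all settings run on every member, and 0 were called in any of them. The median difference of the neighbours of H2-Ab1 stayed between 0.00 and 0.16. Called probe sets over the array, 2 as reported, numbered 1 with quantile normalization, 1 without the 2 arrays of brightest hybridisation controls and 0 with the replicate block for shared title wording, the 18S block, either 18S set alone or without the pair of arrays titled Wnt9B, a setting chosen after seeing the data. They numbered 0 to 1 on leaving out 1 array. Called genes, 1 as reported, numbered 10 with trend and robust moderation, 6 without the dimmest 40%, 0 when a gene's probe sets were averaged and under those same block, 18S set and left-out array settings, and 0 to 2 on leaving out 1 array. With a pseudocount of 16 the H2-Ab1 difference was -1.66, and averaged over its probe sets it was -1.24. The filter on dim genes left H2-Ab1 out of the gene fit. Signal near background limits 1443783_x_at, 1459872_x_at and 1447075_at most.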
